A study of Homo sapiens with 6 samples.

Results

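The regions described here are places inside the chromosome arms where broken DNA ends were captured from untreated MDA-MB-231 cells, an established human line of triple-negative breast cancer, kept in DMSO for 9 h. The assay, BrITL, adds a biotin-carrying chain terminator to free 3′ ends in permeabilised cells, and the tagged DNA is pulled down on streptavidin and sequenced. A region of the DMSO list belongs to this set when its summit, the position of highest pileup, lies at least 100 kb from both ends of an hg19 chromosome and more than 2 Mb outside its centromeric bands. The rule uses position and no measured value, and it kept 215 of the 381 DMSO regions. Of the rest, 47 lay within 100 kb of a chromosome end, 67 within 2 Mb of a centromere, 48 on unplaced contigs and 4 on the mitochondrial genome. The comparison condition is ATRi+APH, the same cells exposed for 9 h to the ATR inhibitor VE-822 at 0.5 µM with the DNA polymerase inhibitor aphidicolin at 0.2 µM. Its list held 1133 regions, 1047 of them in chromosome arms by the same rule.

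Pull-down libraries numbered 2 and input libraries 1 in each of these conditions, all of 1 cell line. The deposited lists pool the pull-downs of a condition, 1 list for each, so no value has a replicate spread and no difference below was tested. Intervals are 95% exact binomial intervals (Clopper-Pearson for shares, order statistics for medians). They cover counting error only and treat regions as independent, although neighbouring regions share their locus.

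Breaks arise in unperturbed cells from replication forks that meet obstacles, from transcription and topoisomerase activity, and at repeats that are hard to copy. ATR is the kinase that senses stalled forks and keeps them from collapsing, and aphidicolin at low dose slows forks without stopping them. The DMSO list addresses where such ends were captured with neither agent present, and its overlap with the ATRi+APH list addresses which of these places were also called under replication stress. No hg19 sequence was used here, and the regions are given by position and band without their bases.

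The arm regions were small islands of low read number, most of them alone. Their median width was 183 bp (interval 156 to 208, quartiles 118 and 302.5, range 78 to 1990), and together they covered 61.7 kb. There were 120 regions of at most 200 bp (55.8%, interval 48.9 to 62.6), 29 of more than 500 bp (13.5%) and 11 of more than 1 kb (5.12%). The summit lay in the central part of the region, when its width was divided into 3 equal parts, in 125 of the 215 (58.1%), in 91 of the 120 narrow ones (75.8%) and in 10 of the 29 wider than 500 bp (34.5%). Width and summit reads were nearly unrelated across the 215 regions (Spearman's rho = -0.063), which all share 1 pooled pull-down and 1 input.

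The authors' fold enrichment, pull-down pileup over local background, had a median of 6.44 in the arm regions (interval 6.13 to 6.44, quartiles 6.06 and 7.57, range 2.1 to 29.5). The number of reads at the summit, worked out from each region's fold and p-value, had a median of 19 (interval 17 to 20, quartiles 16 and 34.5, range 15 to 156). There were 101 regions with at most 17 reads (47.0%, interval 40.2 to 53.9), against 32.8% of all 329 DMSO regions on chromosomes 1 to 22, X and Y. A deposited −log10 q of at least 10 was reached by 84 arm regions (39.1%, interval 32.5 to 45.9), against 51.1% of all DMSO regions on those chromosomes.

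The lower edge of the list was visible in the values themselves. The local background equalled the genome background of 1.64 reads, the lowest value it can take, in 124 arm regions (57.7%, interval 50.8 to 64.4). At that background every read number corresponds to a single deposited fold. There were 44 regions with 15 reads and a fold of 6.06, 29 with 16 reads and a fold of 6.44, and 9 with 17 reads and a fold of 6.81. No DMSO region had fewer than 15 reads, so 44 arm regions (20.5%, interval 15.3 to 26.5) sat at the smallest count in the list.

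**Figure D1:**
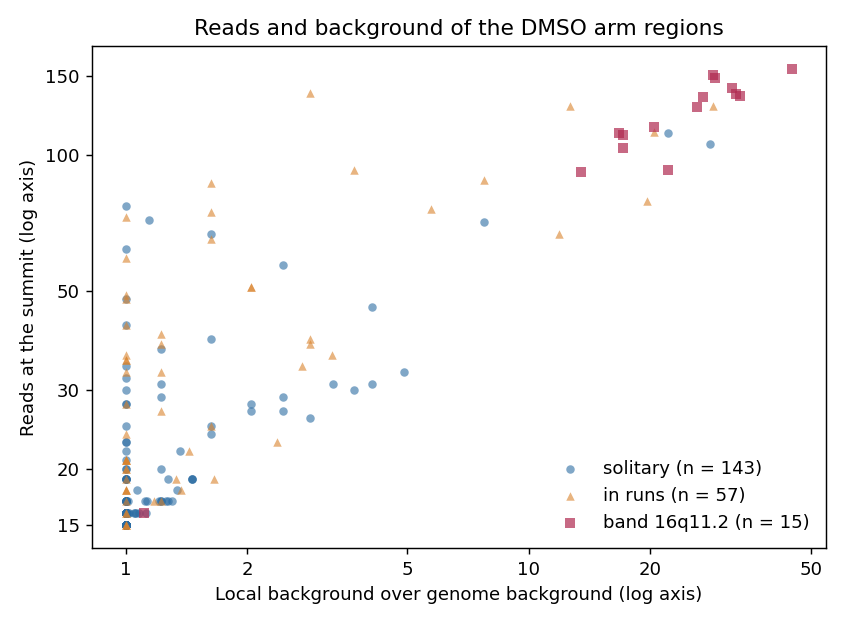
Reads at the summit of each of the 215 DMSO arm regions (vertical axis, log scale) against its local background divided by the genome background of 1.64 reads (horizontal axis, log scale), 1 point per region. Points stack at a background of 1 from 15 reads upward, and 14 of the 15 regions of band 16q11.2 lie at 13.5 to 44.9 times the genome background, where 5 regions of other bands also lie.

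The regions divided by spacing into solitary ones and runs. A run is taken here as 2 or more arm regions whose summits follow each other within 10 kb. In these terms 144 regions were solitary and 71 (33.0%, interval 26.8 to 39.7) lay in 18 runs, so the 215 regions stood at 162 separate places. Of all DMSO regions on chromosomes 1 to 22, X and Y, 48.6% lay in runs. The nearest other arm summit was 4345 kb away in the median for solitary regions and 0.68 kb for those in runs. Of the solitary regions 10 had another within 100 kb. Runs of 2 made up 10 of the 18, and 5 runs of at least 5 regions held 42.

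Solitary and run regions differed little in width and more in reads. Median widths were 187.5 bp (interval 154 to 229) and 164 bp (interval 146 to 230). Median reads were 16 (quartiles 15 and 21.3) in solitary regions and 38 (quartiles 21 and 92.5) in runs. Of the solitary regions 93 held at most 17 reads, and of the run regions 8 did. A background above 2 times the genome background was found at 14 solitary and 30 run regions, together 44 of the 215 (20.5%, interval 15.3 to 26.5), against 34% of all DMSO regions on those chromosomes.

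The run with the most regions lay in 16q11.2, a band that the cytogenetic map marks as variable heterochromatin, the repeat-rich block beside the centromere of chromosome 16. Band 16q11.2 held 15 arm regions, of which 12 formed 1 run of 20.97 kb (chromosome 16, 46387379 to 46408433). A pair followed at 46423018 to 46432792, and the last was solitary at 46917316 to 46917433. Summit reads in the run of 12 ranged from 92 to 156 with a median of 132, yet folds were low, from 2.1 to 4.02 with a median of 3.01. The local background there ran from 13.5 to 44.9 times the genome background. The solitary region of the band had 16 reads, a fold of 6.02 and a background of 1.11 times, unlike its 14 neighbours. None of the 15 overlapped an ATRi+APH region (0%, interval 0 to 21.8). That interval holds the share of all arm regions (8.84%) and of all DMSO regions on chromosomes 1 to 22, X and Y (15.2%). The nearest treated region to the run of 12 lay 415 to 436 kb away. These 14 clustered regions met the rule by distance, yet their background was of the order found at the 67 DMSO regions within 2 Mb of a centromere (median 19.6 times), while the median of all arm regions was 1.00.

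The highest summit count in the DMSO list, 156 reads, occurred at 8 of the 381 regions, among them 1 arm region, in the 16q11.2 run, and all 4 mitochondrial regions. It equals 2 times the length of the shortest region, 78 bp. What sets this highest value was not tested.

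A run of 10 regions lay at 1p36.33 (chromosome 1, 564523 to 570237) and filled 5.50 kb between its outer summits. In order along the chromosome its summits held 35, 73, 35, 49, 129, 34, 75, 48, 129 and 36 reads. The folds were 13.6, 28.0, 13.6, 18.9, 5.97, 6.37, 20.6, 18.5, 2.71 and 5.84. The 2 summits of 129 reads had a background of 12.7 and 28.6 times the genome background, whereas 5 of the others were at 1.00. This stretch of hg19 is known to carry a long copy of mitochondrial DNA, which is stated from general knowledge and was not looked up in an annotation. The DMSO list also held regions on the mitochondrial genome itself, between positions 4275 and 8751, with folds of 1.79 to 2.14, while the ATRi+APH list held 0 there. The part of mitochondrial reads in the values at 1p36.33 was not tested. Other arm regions, the run at 5q31.1 among them, were not checked for such copies, so 1p36.33 need not be the only one.

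A run of 9 regions lay at 4q35.2 (chromosome 4, 191036494 to 191044293), 110 to 118 kb from the end of the chromosome and so just inside the limit of the rule. Its folds ranged from 6.13 to 24.4 and its reads from 17 to 138, both highest at the region nearest the end (191042882 to 191044293, 1412 bp wide). Background was low, at most 2.86 times the genome background. At 3q29 a run of 6 regions (chromosome 3, 197898442 to 197901403) lay 121 to 124 kb from the end, with folds of 9.46 to 22.7 and 24 to 65 reads. At 11p15.5 a run of 3 (chromosome 11, 175511 to 178247) and a run of 2 (189582 to 191907) lay 176 to 192 kb from the end, with 21 to 51 reads. At 18p11.32 a run of 3 (chromosome 18, 105569 to 110457) had low folds of 2.41 to 4.91 on a background of 2.37 to 19.6 times.

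Counting these, 42 arm regions (19.5%, interval 14.5 to 25.5) lay within 1 Mb of a chromosome end, 33 of them in runs. Their median fold was 10.4 (interval 7.06 to 13.2) and their median reads 36. The 3 regions nearest to the 100 kb limit from inside lay 106, 107 and 108 kb from an end, at 18p11.32, 20q13.33 and again 18p11.32, with folds of 4.91, 29.5 and 3.33. The 3 nearest from outside were all at 12p13.33, 94.0, 94.7 and 95.5 kb from the end, with folds of 9.46, 15.9 and 18.5. The label of arm interior thus holds for most members, and 42 of the 215 are subtelomeric by a limit of 1 Mb. At the other limit, the nearest inside lay 2.12 Mb (17q11.2), 2.38 Mb (2p11.2) and 2.42 Mb (9p11.2) from the centromeric bands, with folds of 6.06, 6.43 and 3.76. The nearest outside lay 1.83 Mb (14q11.2), 1.73 Mb (11q12.1) and 1.48 Mb (17q11.2) away, with folds of 6.44, 5.98 and 6.44.

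The fifth of the larger runs was far from any chromosome end, at 5q31.1 (chromosome 5, 134259832 to 134263754). Its 5 regions held 88, 113, 40, 76 and 93 reads, with folds of 6.48, 3.30, 13.6, 7.41 and 13.4. Their background ran from 1.23 to 20.4 times the genome background. The 3 regions at 2q13 (chromosome 2, 114357307 to 114361115) were weaker, with 16 to 21 reads and folds of 5.98 to 8.33, and had no treated region within 4050 kb. The pairs at 1q24.2, 19q13.2, 19q13.33, 5q14.1 and Xq25 all stood at genome background with 15 to 20 reads, in the range of the solitary regions.

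The solitary regions were spread over 22 chromosomes and 110 bands. No chromosome 14 or Y region passed the rule. For chromosome 14, 0 of 215 allows a share of up to 1.70% by the exact interval. Chromosome Y held 0 arm regions in either list but was counted in the arm length (1.85%). Whether these cells carry a chromosome Y was not checked. Arm lengths were taken whole, sequence gaps of the build included. Chromosome 1 held the most arm regions, 28, of which 14 were in runs. It was followed by chromosome 19 with 26 and chromosome 16 with 21, while chromosomes 17 and 5 held 15 each. Chromosome 13 held 1 region.

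Set against arm length, chromosome 19 stood highest. It held 12.1% of the arm regions (interval 8.05 to 17.2) on 1.76% of the arm length, a ratio of 6.89. Among solitary regions it held 20 of 144 (13.9%, interval 8.69 to 20.6), a ratio of 7.91. Chromosome 17, whose 15 regions were all solitary, held 10.4% of the solitary regions (interval 5.95 to 16.6) on 2.54% of the length, a ratio of 4.10. Chromosome 16 stood at 3.44 with all its regions and at 1.71 with its 7 solitary ones. Chromosome 4, by contrast, held 1 solitary region on 6.31% of the length, a ratio of 0.110. The corresponding share of the 1047 treated arm regions was 1.43% on chromosome 19, 2.67% on chromosome 17 and 22.5% on chromosome 1.

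**Figure D2:**
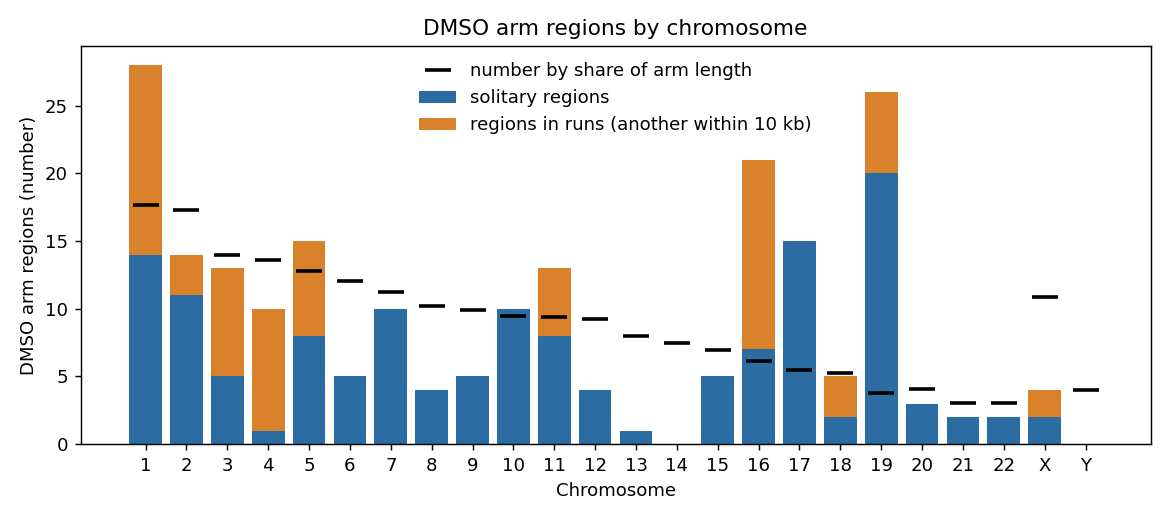
Number of DMSO arm regions on each chromosome (bars, solitary regions below and regions in runs above) with the number that the chromosome's share of arm length would give (black marks). Chromosome 19 reaches 26 regions and chromosome 17 reaches 15, both above their marks, and runs make up 14 of the 28 regions of chromosome 1 and 14 of the 21 of chromosome 16.

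The regions of chromosome 19 were weak ones. Of the 26, 12 held 15 reads and 19 held at most 17, with a median of 16 and a highest value of 31 (19q13.42). Their median width was 242.5 bp. None had a −log10 q of at least 10, where the highest was 9.29 (19q13.33, chromosome 19, 48453520 to 48453682, 27 reads). Among the 84 arm regions past that threshold, chromosome 19 therefore held 0, which allows a share of up to 4.30% (exact interval) and compares with 1.76% of the arm length. Among solitary regions it held 16 of the 93 with at most 17 reads (17.2%, interval 10.2 to 26.4) and 4 of the 51 with more (7.84%, interval 2.18 to 18.9). Both shares were above the chromosome's part of the arm length, and the larger one was found near the lower edge of the list, although the intervals overlap.

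Bands 19p13.3, 19q13.33 and 19q13.2 carried 19 of the 26 regions. Band 19p13.3 held 9 between 871973 and 6828868, with 15 to 20 reads each and folds of 5.38 to 6.97. Band 19q13.33 held 6 between 48018521 and 49991151, with 15 to 27 reads. Band 19q13.2 held 4 between 39340514 and 41770554, with 15 to 17 reads, of which the widest had 847 bp. On chromosome 17 the weak regions were joined by 3 stronger ones. These were at 17q22 (51183595 to 51183740, 42 reads, fold 16.3) and 17p11.2 (18966850 to 18967198, 30 reads, fold 11.7, and 19091378 to 19091474, 28 reads, fold 11.0), all at genome background.

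Bands with many members were few. The 215 regions fell in 120 of the 808 bands that hold arm length, 85 of them with 1 region. The 9 bands with at least 5 regions held 71, and most of these bands have been described above. Of the 9, the band with only solitary regions was 7q22.1, with 5. Its regions had 16 to 20 reads, and 3 of them stood close together at 102232297 to 102259275 on chromosome 7, spaced 13.8 and 13.1 kb apart and so just beyond the limit for a run. At 10q24.32, 4 solitary regions lay between 103124613 and 104474556 on chromosome 10, with 15 to 30 reads.

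Arm regions, like the DMSO list as a whole, lay mainly in pale bands, the G-negative bands that are gene-rich and replicate early. Of the 215 arm regions 134 did (62.3%, interval 55.5 to 68.8), and of the solitary ones 94 (65.3%, interval 56.9 to 73.0), while pale bands make up 43.0% of the arm length. For all 329 DMSO regions the share was 61.4%, and for treated arm regions 47.8% (interval 44.7 to 50.8). In the 84 arm regions with a −log10 q of at least 10 the pale share was 54.8% (interval 43.5 to 65.7). The darkest bands, which are gene-poor and replicate late, held 9 arm regions (4.19%, interval 1.93 to 7.80) on 17.1% of the length, and 16.5% of treated arm regions. Without regions in runs, within 1 Mb of an end or in variable heterochromatin, 133 were left, of which 85 (63.9%) were in pale and 7 (5.26%) in the darkest bands.

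Gene density gave the same order. Protein-coding genes per Mb were counted for each band on assembly GRCh38.p14 and joined to the hg19 bands by band name, so that density is a property of a whole band and not of the region. The median band density was 13.5 genes per Mb for solitary regions, 7.14 for regions in runs and 5.80 for treated arm regions, with 4.68 along the arm length. The densest bands, which make up 24.98% of arm length (above 8.24 genes per Mb), held 90 of the 144 solitary regions (62.5%, interval 54.1 to 70.4) and 29.5% of treated arm regions (interval 26.8 to 32.4). The share was 57.7% for all 215 arm regions (interval 50.8 to 64.4), 48.9% for all 329 DMSO regions and 70.2% for those near chromosome ends, so it was high in the DMSO list as a whole. Leaving out chromosome 19, the share was 56.5% (70 of 124, interval 47.3 to 65.3). It was 72.04% in solitary regions of at most 17 reads (67 of 93, interval 61.8 to 80.9) and 45.1% in those of more (23 of 51, interval 31.1 to 59.7). In the 32 solitary regions with a −log10 q of at least 10 it was 34.4% (interval 18.6 to 53.2), an interval that holds the share of the arm length.

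Across the 24 chromosomes, the number of solitary regions per Mb of arm followed the number of protein-coding genes per Mb (Pearson's r = 0.94, Spearman's rho = 0.72). Without chromosomes 19 and 17 the values over 22 chromosomes were 0.66 and 0.64. With runs included, all arm regions gave 0.90 and 0.48 over 24 chromosomes, and 0.57 and 0.33 without those 2. Treated arm regions per Mb gave 0.23 and 0.55 over 24 chromosomes, and 0.54 and 0.60 without those 2. These are descriptions over chromosomes that share a library and its depth, and base composition varies with gene density. Chromosome Y, with 0 regions and 1.06 genes per Mb, was counted in each of these values. The values for solitary regions rest largely on weak ones, since 93 of the 144 held at most 17 reads. Chromosome 19 held 0 of the 32 solitary regions with a −log10 q of at least 10, and no correlation was taken over those 32.

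**Figure D3:**
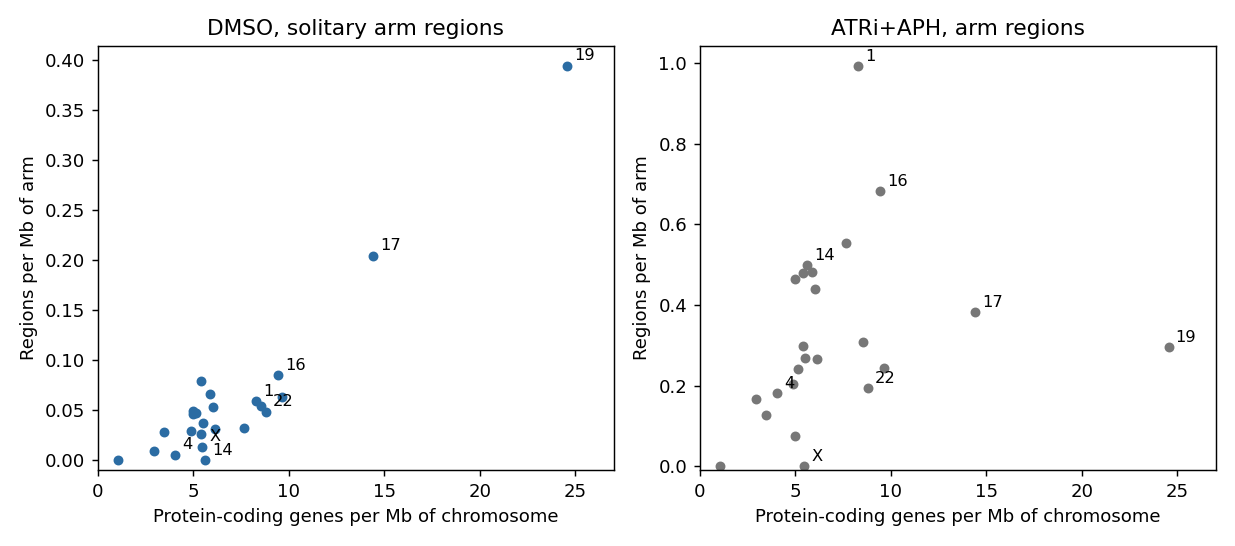
Regions per Mb of chromosome arm against protein-coding genes per Mb of chromosome, 1 point per chromosome, for the 144 solitary DMSO arm regions (left) and the 1047 ATRi+APH arm regions (right), each panel with its own vertical scale. In the left panel chromosome 19 lies highest at 0.394 regions per Mb and chromosome 17 next at 0.204, and in the right panel chromosome 1 lies highest at 0.993.

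Lists of genes known for fragility or repeats were compared at the level of bands, as counts beside the share of arm length and of other regions. The bands of 23 common fragile site genes, very long genes at which chromosomes break under aphidicolin, make up 4.25% of arm length. They held 2 arm regions (0.930%), both solitary in 1p21.3, the band of DPYD, a pyrimidine-degrading enzyme, beside 0.912% of all DMSO regions and 49 treated arm regions (4.68%). The bands of 20 repeat expansion disease genes held 3 arm regions (1.40%, on 2.92% of length), beside 15 of all DMSO regions (4.56%) and 35 treated arm regions (3.34%). Those 3 were in 19q13.32 with DMPK, 5q32 with PPP2R2B and 22q13.31 with ATXN10. The bands of 21 replication stress genes held 8 arm regions (3.72%, on 3.13% of length), at 6.06 to 8.71 fold, beside 18 of all DMSO regions (5.47%) and 30 treated arm regions (2.87%). Among them was the region at 3q23, the band of ATR itself. The bands of zinc finger genes of the ZNF series, many of which sit in arrays on chromosome 19, held 71 arm regions (33.0%) and 63 solitary ones (43.8%) on 17.7% of the length, beside 33.7% of all DMSO regions and 20.5% of treated arm regions. The bands of olfactory receptor genes held 57 (26.5%, on 11.98% of length), beside 28.9% of all DMSO regions. Clustered histone genes had 4 arm regions in their bands (1.86%, on 2.09% of length), beside 2.43% of all DMSO regions, and ribosomal RNA genes had 1, beside 4 of all DMSO regions. A band is far larger than a region, and no gene was placed beside a region.

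Few arm regions coincided with a region of ATRi+APH cells. Of the 215, 19 (8.84%, interval 5.40 to 13.5) overlapped a treated region by at least 1 bp, against 15.2% of all DMSO regions on chromosomes 1 to 22, X and Y, 30 of the 47 near chromosome ends (63.8%, interval 48.5 to 77.3) and 1 of the 67 near centromeres (1.49%, interval 0.0378 to 8.04). The 19 stood at 14 places. In runs 12 of 71 overlapped (16.9%, interval 9.05 to 27.7) and among solitary regions 7 of 144 (4.86%, interval 1.98 to 9.76). Most of the overlaps in runs were at 1p36.33, 4q35.2, 3q29 and 11p15.5, within 1 Mb of a chromosome end. By position, 10 of the 42 arm regions within 1 Mb of an end overlapped (23.8%, interval 12.1 to 39.5). Among the 173 arm regions at least 1 Mb from both ends, 9 did. Seen from the other list, 20 of the 1047 treated arm regions (1.91%, interval 1.17 to 2.93) overlapped an arm region of the DMSO list. A missing overlap is a statement about the lists, whose lowest −log10 p differ (10.5 in DMSO and 6.41 in ATRi+APH), and not about the absence of reads.

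Most of the overlapping arm regions were stronger than the median arm region, although 5q15 (16 reads, fold 6.44) and 1q42.3 (fold 6.10) were at or below it in fold. The median fold of the 19 was 11.3 and the median of their reads 49, against 6.36 and 17 in the 196 others, and 18 of the 19 had a −log10 q of at least 10. Of the 12 arm regions of highest fold, 8 overlapped a treated region. The first was solitary at 20q13.33 (chromosome 20, 62916968 to 62918957, fold 29.5, 77 reads), the widest arm region at 1990 bp and 107 kb from the chromosome end. The overlapping treated region there was 82 bp wide with a fold of 3.47. Next came 1p36.33 (564888 to 565098, fold 28.0), 13q12.3 (chromosome 13, 31418198 to 31418527, fold 25.3), and 2 regions of 4q35.2 (folds of 24.4 and 23.9). The 4 of the 12 without overlap were at 6p25.3 (chromosome 6, 147827 to 147967, fold 23.8, 62 reads), 1p36.33 (568750 to 569323, fold 18.5, 0.343 kb from a treated region), 7p13 (chromosome 7, 45291563 to 45291674, with 67 reads and a fold of 18.47) and 3q11.2 (chromosome 3, 96336701 to 96337087, with 48 reads and a fold of 18.55). Among the 5 widest arm regions, 20q13.33 and the last region of 4q35.2 were strong, while those at 7q22.1 (chromosome 7, 100182924 to 100184312, 1389 bp), 16q13 (chromosome 16, 57333331 to 57334710, 1380 bp) and 1p22.3 (chromosome 1, 86047084 to 86048325, 1242 bp) held 17, 17 and 22 reads.

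Among the 7 solitary overlaps, 6 lay far inside an arm. Both lists marked nearly the same bases at 3q23 and 5q15. At the others of these 6 the treated region lay within a wider DMSO region. At 3q23 the DMSO region spanned 142397277 to 142397370 on chromosome 3 (22 reads, fold 8.71) and the treated region 142397286 to 142397383 (fold 7.22). At 5q15 the DMSO region spanned 94397229 to 94397313 on chromosome 5 (16 reads, fold 6.44) and the treated one 94397228 to 94397323 (fold 6.93). At 4q28.3 the regions spanned 133243918 to 133244005 (23 reads, fold 9.09) and 133243921 to 133243998 (fold 5.04) on chromosome 4. At 21q22.12 they spanned 36085112 to 36085229 (31 reads, fold 10.6) and 36085144 to 36085224 (fold 3.47) on chromosome 21. The other two were wider, at 13q12.3 (330 bp, 72 reads, with a treated region of 240 bp and fold 7.22) and 1q42.3 (chromosome 1, 236260415 to 236260698, 46 reads, fold 6.10, with a treated region of 245 bp and fold 2.53). The region at 13q12.3 was the sole arm region of chromosome 13. These 6 did not share a band, and their background lay between 1.00 and 4.08 times the genome background.

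**Figure D4:**
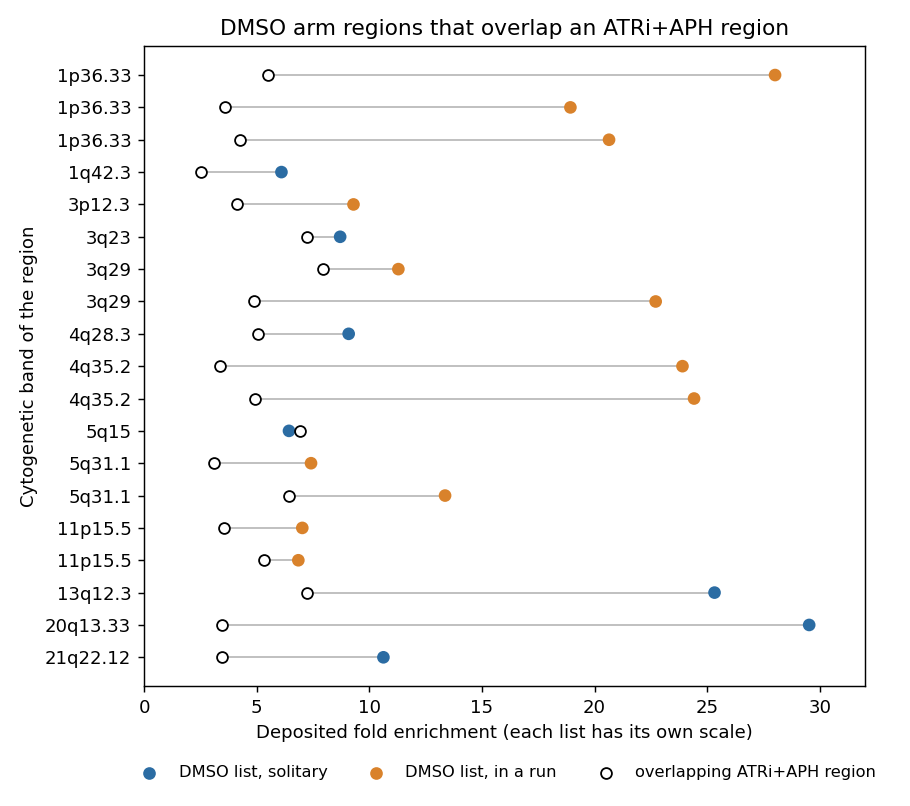
Deposited fold enrichment of the 19 DMSO arm regions that overlap an ATRi+APH region (filled points, by spacing) and of the overlapping treated region (open points), with the cytogenetic band on the vertical axis. The lists were called separately, so the length of a line is not a change, and the plot shows that the DMSO folds range from 6.10 to 29.5 and that 12 of the 19 belong to runs.

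Distances to the nearest treated region were also taken, with an overlap counted as 0. A distance could be given for 211 regions, because the ATRi+APH list has 0 regions on chromosome X, where 4 DMSO arm regions lay, at Xq21.1, Xq23 and as a pair at Xq25, with 16 to 28 reads. The median distance between nearest edges was 426 kb (interval 404 to 541, quartiles 59.1 and 1270), and 472 kb without the 19 overlapping regions. It was 723 kb (interval 512 to 1018) for solitary regions and 2.78 kb (interval 1.02 to 400.4) for regions in runs. Within 10 kb of a treated region lay 47 arm regions (21.9%, interval 16.5 to 28.0), against 27.7% of all DMSO regions on those chromosomes. Within 100 kb lay 64 (29.8%, interval 23.7 to 36.4), against 33.4%, and within 1 Mb lay 145 (67.4%, interval 60.7 to 73.7), against 62.3%. The arm regions were thus close to the share of the whole DMSO list at 100 kb and 1 Mb.

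Runs carried most of the close neighbours. Of the 47 arm regions within 10 kb of a treated region, 37 were in runs and 10 were solitary. The 3 solitary ones that did not overlap were at 1p36.13 (6.44 kb), 16q11.2 (5.33 kb) and 19q13.33 (5.67 kb). Most of the run regions within 10 kb belong to 1p36.33, 4q35.2, 3q29 and 11p15.5, all within 1 Mb of a chromosome end. Of the 42 arm regions within 1 Mb of an end, 31 lay within 10 kb (73.8%, interval 58.0 to 86.1). Their median distance was 0.917 kb. The parts of spacing and of position in these short distances were not tested. Every region of the runs at 1p36.33, 3q29, 4q35.2 and 5q31.1 lay within 4.10 kb of a treated region, and 7 of the 18 runs held at least 1 overlap. Chromosome 1, where the treated list is densest, had a median distance of 85.5 kb over its 28 arm regions, 10 of which are the run at 1p36.33. Its 14 solitary regions had a median of 259.7 kb (interval 40.4 to 812), and the solitary regions of the other chromosomes had a median of 790 kb (interval 558 to 1110). Chromosome 19 had a median of 1480 kb and 0 overlaps among its 26 regions (interval 0 to 13.2%). Chromosome 17 had a median of 1137 kb and 0 overlaps among 15 (interval 0 to 21.8%). Both intervals hold the overlap share of all arm regions, 8.84%. The share of all DMSO regions on chromosomes 1 to 22, X and Y, 15.2%, lies inside the interval of chromosome 17 and above that of chromosome 19. The longest distance, 21.1 Mb, was at 16p12.1 (chromosome 16, 25771387 to 25771511, 39 reads), and 13 arm regions, all solitary, were more than 5 Mb from a treated region.

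**Figure D5:**
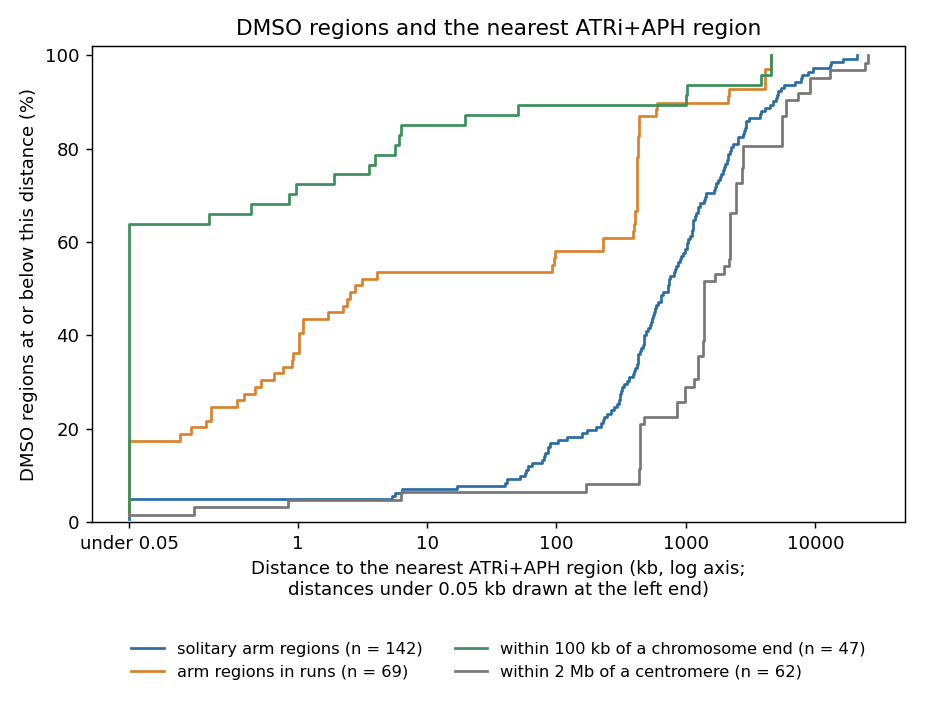
Cumulative share of DMSO regions (vertical axis, percent) by distance to the nearest ATRi+APH region (horizontal axis, kb on a log scale), for arm regions alone and in runs, for regions within 100 kb of a chromosome end and for regions within 2 Mb of a centromere. The curve of chromosome ends starts at 63.8% overlap, the median of runs is 2.78 kb, and that of solitary arm regions is 723 kb.

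Set beside the other DMSO regions, the arm regions lay between the ends and the centromeres in fold and below both in reads. Median folds were 6.44 in the arms, 17.3 at chromosome ends and 2.96 near centromeres, and median reads were 19, 62 and 100. Median widths were 183, 389 and 98 bp. Genome background was found at 124 of 215 arm regions, at 26 of 47 near ends and at 4 of 67 near centromeres. These differences were not tested, since regions of 1 pooled list are not replicates.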

How the data were processed

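BrITL pull-down and input DNA of MDA-MB-231 cells was sequenced in 6 samples. Per the submitters' processing notes, regions were called with MACS2 2.1.0 among other tools (Picard 1.141, SAMtools 0.1.19, STAR 2.5.2a, bcl2fastq 2.17.1.14), with settings not given in the sources used here. Builds named are hg19 and mm10, and the regions lie within the hg19 chromosome lengths. The authors deposited 1 list per condition, called on all pull-downs against all inputs, as the peak names state. The deposited fold is a ratio of pull-down to local background, 2 deposited columns hold the −log10 p-value and −log10 q-value, and the deposited score is 10 times the −log10 p cut to a whole number, checked but not used. The deposited summit offset is another unit, bases from the region's start. Positions are 1-based hg19.

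Reads and background were recovered from fold and p with MACS2's formulas as generally known: fold is reads plus 1 over background plus 1, and p is a Poisson tail. All 381 regions gave whole numbers (100%, tolerance 0.02 reads). In 300 simulated regions the recovered reads equalled the simulated ones (100%). Those were made with the same formulas, so they check the calculation and not whether the deposited lists follow the formulas. The lists give no library totals, and the labels name PCR amplification. Bands came from circlize 0.4.16 (R 4.3.3), genes from RefSeq GRCh38.p14 by band name (862 of 862 bands shared). All 23, 20 and 21 genes of the fixed lists matched. Scripts used Python 3.11.15, pandas 2.3.3 and scipy 1.17.1. No test was made. Regions, lists and rules were chosen with earlier results of these data known. Regions were named by rule: overlaps with treated regions, the 12 highest folds, the widest, runs, bands with at least 5 regions, and regions at the edges of the rule. The pairs, the regions of chromosomes X and 17, the band 10q24.32 and the 7q22.1 group were named after their values were seen.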

Additional observations from a re-analysis of the deposited data

Results flagged for a closer look

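Signal was present in parts of the DMSO list that no comparison used. The list held 4 regions on the mitochondrial genome, each with 156 reads at its summit and a background of 44.2 to 52.7 times the genome background, and the ATRi+APH list held 0. It held 48 regions on unplaced contigs, with a median fold of 3.35 and a median background of 14.3 times the genome background, and the ATRi+APH list held 10. Outlying samples were not looked for, since each condition has 1 pooled list.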

How the results depend on the processing

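Leaving out chromosome Y could change none of the 9 results, since no arm region lies there. Shares of arm length and the correlations over chromosomes, which count chromosome Y, were not recomputed without it. Of the 60 other alternatives over 9 results, 39 stayed within the interval of the reported value (or within 1.5 times a count) and 21 did not. A limit of 5 Mb from centromeres, leaving out variable heterochromatin and measuring between summits moved no result. With 1 Mb kept from chromosome ends, 21.97% of regions were in runs, 9 overlapped a treated region, the median distance was 586 kb and 14.5% lay within 100 kb. With a −log10 q of at least 10 in both lists, 84 regions were left, 0% on chromosome 19, 54.8% in pale bands and 56.0% in runs. In that setting 5 overlapped, the median distance was 555 kb (interval 3.91 to 6328) and the median background 1.498 times. The threshold also thinned the treated list, whose arm regions had a median −log10 q of 2.26 and an upper quartile of 3.34. The overlap and the distance in that setting thus do not refer to the full treated list. Counting a run once gave 0% in runs by construction, 11 overlaps, 592 kb and 19.8%. Solitary regions alone, chosen after seeing the data, gave 7 overlaps, 723 kb and 16.7%. Summits within 1 kb gave 30 shared regions and edges within 10 kb gave 47. Joining regions within 1 Mb put 52.6% in runs. Most regions rest on 15 to 20 reads, which limits each value. No paired analysis was possible because the lists pool the replicates, and no replicate could be left out for the same reason.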
